A study of Homo sapiens with 9 samples.

Results

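Metallothioneins are small cysteine-rich proteins that bind zinc, copper and cadmium, and their genes lie together in a cluster on chromosome 16. The genes described here are 6 metallothionein genes (MT2A, MT1E, MT1F, MT1G, MT1M and MT1X), SLC30A1 and MTF1. They were taken by symbol from a written list, not by their values, and all 8 were found among the 24344 genes of the count table. Of the 8, 6 held enough reads to be tested, among 14195 tested genes, while MT1G and MT1M did not.

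The data are gene counts from unstranded paired-end sequencing of total RNA. The cells, MDA-MB-231, are an established line from a human breast adenocarcinoma. They received Compound Kushen Injection (CKI) at 2.0 mg/mL, Kushen injection or Baituling injection for 48 h, the last 2 in the ratio they have in CKI. CKI is prepared from both herbs, and the comparisons ask what each single injection does beside the mixture. Each treatment had 3 libraries, described by the submitters as biological replicates, and untreated libraries were not analysed here. All groups share the cell line, the medium and the treatment time, and nothing in the sources used here says whether the replicates were grown on separate days. The p-values therefore weigh each difference against the spread between these libraries. Whether a difference would recur in new cultures was not tested.

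Cells sense zinc mainly through MTF-1, the zinc-finger transcription factor encoded by MTF1. When zinc is plentiful, MTF-1 binds metal response elements and switches on the metallothionein genes and SLC30A1, which encodes the zinc exporter ZnT1 of the plasma membrane. Under zinc excess MTF-1 is also known to lower SLC39A10, which encodes a zinc importer.

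The promoters below are shown because they carry the sequence that MTF-1 recognises. They come from RefSeq on build GRCh38.p14, where an entry was found for 4 of the 8 genes, and each stretch ends just before the transcription start. Capitals mark the core of the metal response element, searched as TGCACNC or TGCGCNC on both strands. An element on the opposite strand therefore reads as its reverse complement. No matches in these promoters overlapped each other.
MT2A (chr16:56608384-56608583, + strand): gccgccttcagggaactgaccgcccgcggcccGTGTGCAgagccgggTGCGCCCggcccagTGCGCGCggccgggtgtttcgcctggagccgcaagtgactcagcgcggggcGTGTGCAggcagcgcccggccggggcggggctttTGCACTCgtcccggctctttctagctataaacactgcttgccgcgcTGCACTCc
MT1X (chr16:56682270-56682469, + strand): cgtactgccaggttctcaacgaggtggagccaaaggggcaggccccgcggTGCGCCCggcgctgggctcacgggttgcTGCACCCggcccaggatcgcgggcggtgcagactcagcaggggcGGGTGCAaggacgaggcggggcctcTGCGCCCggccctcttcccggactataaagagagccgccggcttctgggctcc
SLC30A1 (chr1:211579162-211579261, - strand): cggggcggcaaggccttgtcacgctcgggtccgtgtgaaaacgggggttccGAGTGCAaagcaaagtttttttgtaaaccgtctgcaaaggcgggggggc

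Counted over the window from 250 bases before to 50 after the start, MT2A held 8 matches, MT1X 4, SLC30A1 2 and MTF1 none. Of 35116 human promoters of that length, 29.6% held at least 1 match, 8.60% at least 2, 0.601% at least 4 and 0.0199% (7 promoters) at least 8. For the cluster genes MT1H and MT1B, which are not listed here, the counts were 8 and 3. A match describes the letters and does not show that MTF-1 was bound in these cells.

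On build GRCh37, the 6 metallothionein genes lie on chromosome 16 at 56642496-56643409 (MT2A), 56659387-56661024 (MT1E), 56666571-56667893 (MT1M), 56691643-56694610 (MT1F), 56700642-56701977 (MT1G) and 56716382-56718108 (MT1X). SLC30A1 (1:211744910-211752503) and MTF1 (1:38275246-38325264) lie on chromosome 1. Metallothionein genes are close copies of each other, and the handling of reads that fit several copies is not given in the sources used here, so their individual counts are uncertain. In the annotation MT1X also overlaps a long non-coding RNA on its own strand. MTF1 overlaps AL929472.1 on its own strand and a pseudogene on the opposite strand, which unstranded reads cannot separate from it. A sum over the family is therefore given beside the single genes.

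Library totals ran from 20144628 to 23782071 counts. Values are CPM (counts scaled to a fixed library size) after TMM, a correction of library size for differences in composition. Scaling by library totals alone moved the median log2 difference of all tested genes by 0.29 in CKI against Baituling and by 0.21 in Kushen against Baituling, so differences of that size depend on the scaling. Of the line's markers, VIM, CD44, AXL, MSN and CAV1 were abundant, ESR1 and PGR had at most 4 counts in any library, CDH1 had at most 2.82 CPM and ERBB3 8.94–13.7 CPM. The 4 markers of blood, liver and immune cells that the table holds summed to at most 0.711 CPM. The 5 abundant markers summed to 2365–2475 CPM under CKI, 3208–3216 under Kushen and 5811–5897 under Baituling, and their part in the results below was not tested. In bulk RNA, fewer cells with a transcript and less of it per cell cannot be told apart.

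MT2A was the dominant metallothionein transcript in every library. It stood at 1382, 1465 and 1484 CPM under CKI, 2094, 1965 and 1979 CPM under Kushen and 1729, 1594 and 1596 CPM under Baituling. The groups did not overlap, with Kushen highest and CKI lowest. Among all genes ordered by count, MT2A ranked 21 to 23 under CKI, 16 to 18 under Kushen and 46 to 51 under Baituling. That rank also depends on the counts of the other genes and is not corrected for length, so it does not order MT2A between treatments. MT2A was lower under CKI than under Kushen by 0.48 ± 0.04 on the log2 scale (1.39-fold, SE, edgeR adjusted p = 9.76e-08), and higher under Kushen than under Baituling by 0.30 ± 0.04 (adjusted p = 5.89e-06). The difference of CKI from Baituling was -0.18 ± 0.04 (adjusted p = 0.000895), and its direction depends on the scaling, since with library totals it was 0.10 (adjusted p = 0.0193).

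MT1X differed most from Baituling of the 6 tested genes. Its values were 201, 228 and 217 CPM under CKI, 302, 267 and 266 CPM under Kushen and 67.3, 66.1 and 63.0 CPM under Baituling. Both injections that contain Kushen lay well above Baituling, and no group overlapped another. MT1X was 3.29-fold higher under CKI than under Baituling (log2 1.72 ± 0.06, edgeR adjusted p = 2.07e-15) and 4.25-fold higher under Kushen (2.09 ± 0.06, adjusted p = 2.40e-16). Of 14195 genes, 640 were higher still in the first comparison and 278 in the second. Against Kushen, CKI was 1.29-fold lower (log2 -0.37 ± 0.05, adjusted p = 2.28e-05).

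MT1E followed the order of MT1X but with a smaller gap. It read 293, 292 and 303 CPM under CKI, 516, 437 and 436 CPM under Kushen and 261, 228 and 233 CPM under Baituling. Kushen was highest in every library and Baituling lowest. The gene was 1.57-fold lower under CKI than under Kushen (log2 -0.65 ± 0.06, edgeR adjusted p = 1.07e-07), 1.23-fold higher under CKI than under Baituling (0.30 ± 0.06, adjusted p = 0.000203) and 1.92-fold higher under Kushen than under Baituling (0.94 ± 0.06, adjusted p = 4.15e-11).

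MT1F was rare, with 50, 39 and 46 counts under CKI, 56, 49 and 40 under Kushen and 62, 52 and 40 under Baituling. These correspond to 1.78 ± 0.197, 2.01 ± 0.239 and 2.69 ± 0.430 CPM (SD, n = 3). The CKI and Kushen groups overlapped and differed by -0.18 ± 0.20 (edgeR adjusted p = 0.505). CKI was lower than Baituling by 0.60 ± 0.19 (adjusted p = 0.0092), the opposite direction to MT1X and MT1E, although this call was lost without Baituling replicate 1 (adjusted p = 0.0511) and with library totals (adjusted p = 0.151). Kushen against Baituling gave -0.42 ± 0.19 (adjusted p = 0.0563).

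MT1G and MT1M were close to absent. MT1G had 0, 1 and 1 counts under CKI, 2, 1 and 1 under Kushen and 0, 0 and 1 under Baituling. MT1M had 1, 2 and 0 counts, 1, 3 and 0 counts and 4, 2 and 0 counts. At this depth no difference between treatments was detectable for either gene, and no fold is given.

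SLC30A1, the zinc exporter that MTF-1 is known to switch on, split the treatments in a different way. It read 81.4, 75.6 and 76.2 CPM under CKI, 80.6, 79.5 and 74.5 CPM under Kushen and 47.6, 43.6 and 42.1 CPM under Baituling. CKI and Kushen overlapped, and both lay above every Baituling library. Their difference was -0.01 ± 0.05 with a 95% interval from -0.12 to 0.10 (edgeR adjusted p = 0.909), so a difference beyond that range was not seen between these libraries. SLC30A1 was 1.75-fold higher under CKI than under Baituling (log2 0.81 ± 0.06, adjusted p = 8.56e-11) and 1.76-fold higher under Kushen (0.81 ± 0.06, adjusted p = 1.02e-10).

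MTF1 fell in the order CKI, Kushen, Baituling, with no overlap. Its values were 41.0, 41.3 and 37.6 CPM under CKI, 29.9, 31.8 and 29.8 CPM under Kushen and 15.9, 17.6 and 17.9 CPM under Baituling. CKI exceeded Kushen by 1.31-fold (log2 0.39 ± 0.06, edgeR adjusted p = 5.21e-05), whereas MT2A, MT1E and MT1X were each lower under CKI than under Kushen. CKI was 2.34-fold above Baituling (1.23 ± 0.07, adjusted p = 2.75e-12) and Kushen 1.78-fold above it (0.84 ± 0.07, adjusted p = 1.81e-09).

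**Figure D1:**
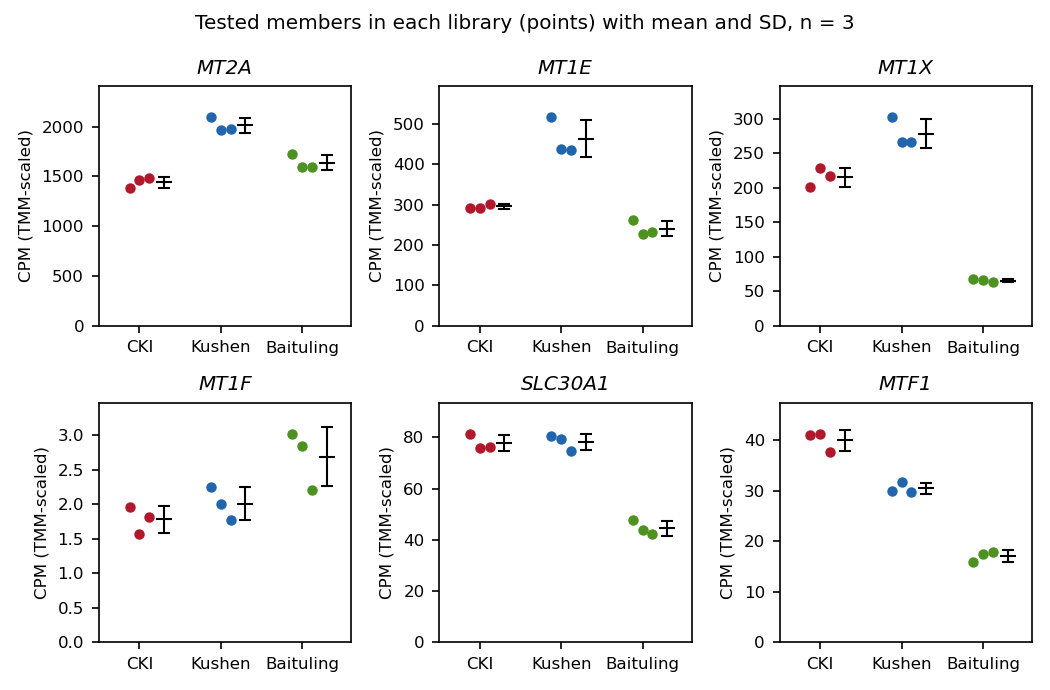
CPM (TMM-scaled, linear axes from 0) of the 6 tested genes in each library; points are libraries and bars the mean with SD of 3 libraries. MT1X, MT1E, SLC30A1 and MTF1 lie lowest in all Baituling libraries, and MT2A, MT1E and MT1X are highest under Kushen.

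For CKI against Kushen, 4 of the 6 tested genes passed the test at an adjusted p under 0.05, 1 higher (MTF1) and 3 lower (MT2A, MT1E and MT1X). In that comparison 19.6% of all tested genes were higher and 20.2% lower, 49.5% had groups that did not overlap, and 1.90% also passed a 2-fold difference, which none of the 6 did. Their median log2 difference was -0.27, against 0.01 over all tested genes.

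For CKI against Baituling, all 6 passed, 4 higher (MT1E, MT1X, SLC30A1 and MTF1) and 2 lower (MT2A and MT1F), and 2 of them, MT1X and MTF1, passed 2-fold. The shares of all genes were 39.1% higher, 37.0% lower, 19.1% past 2-fold and 78.3% without overlap. Their median was 0.55 against 0.03 over all genes. With library totals 5 passed as higher and none as lower.

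For Kushen against Baituling, 5 passed, all higher, and 1, MT1X, passed 2-fold. The shares of all genes were 35.6% higher, 36.1% lower, 15.2% past 2-fold and 73.1% without overlap. The median was 0.82 against 0.02. Since most genes differed between Baituling and the other injections, passing the test is common there, and the sizes carry more than the counts.

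**Figure D2:**
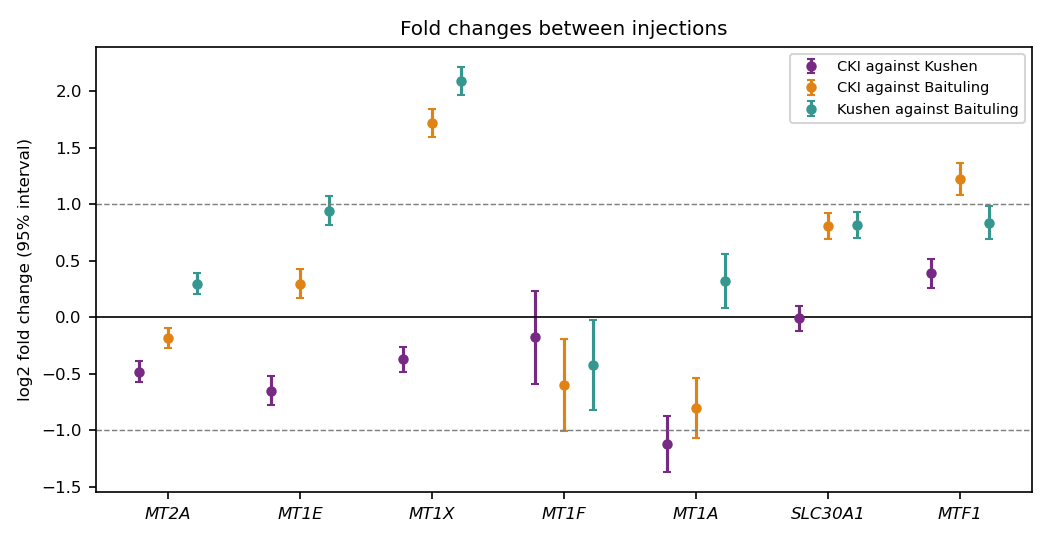
Log2 fold change (first injection over second) of 7 genes in the 3 comparisons, with 95% intervals from the edgeR fit and dashed lines at the 2-fold threshold. MT1X lies at 1.72 and 2.09 against Baituling and SLC30A1 near 0 between CKI and Kushen.

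A sum over the metallothionein family does not depend on how counted reads were split between the copies it holds. Any reads counted to copies absent from the count table, and reads that were not counted, are missing from it. The table holds 14 of the 24 family genes and pseudogenes written down, and 9 of the 14 had at most 10 counts in every library. The sum was 1961 ± 69.6 CPM under CKI, 2766 ± 139 under Kushen and 1956 ± 97.7 under Baituling (SD, n = 3). The ranges of CKI (1881–2011 CPM) and Baituling (1899–2069 CPM) overlapped, while every Kushen library stood above both. As a share of all counts the family took 0.207–0.216% under CKI, 0.275–0.306% under Kushen and 0.170–0.182% under Baituling. CKI and Baituling did not overlap on that scale, where the sums were 2132 and 1743 CPM.

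The composition of the family differed between Baituling and the other injections. MT2A made up 73.6% of family counts under CKI, 72.8% under Kushen and 83.8% under Baituling. MT1E made up 15.1%, 16.7% and 12.3%, and MT1X 11.0%, 10.1% and 3.35%. As a percentage of MT2A, MT1X was 14.5–15.6% under CKI, 13.5–14.4% under Kushen and 3.89–4.15% under Baituling, a ratio that no scaling of the libraries can change. The Baituling range lay apart from both others, although with 3 libraries a group the smallest p of a two-sided exact permutation test is 0.1.

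**Figure D3:**
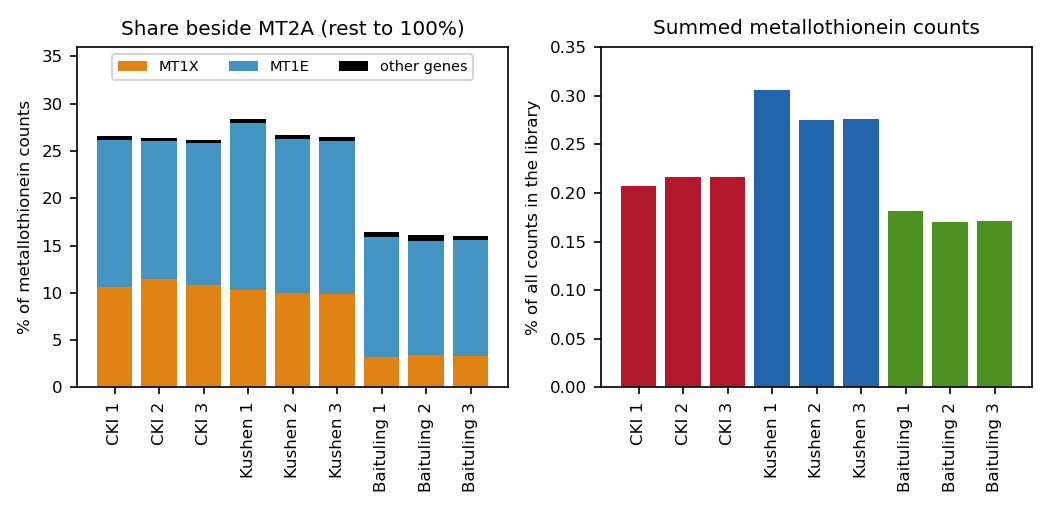
Left, the share of metallothionein counts held by MT1X, MT1E and the other 11 genes in each library, with MT2A as the rest up to 100%. Right, summed metallothionein counts as a percentage of all counts in the library. The MT1X share is 3.35% on average under Baituling against 11.0% under CKI and 10.1% under Kushen, and the Kushen libraries hold the highest sums.

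Among the other family genes, only MT1A held enough reads to be tested. It read 4.20, 4.39 and 4.82 CPM under CKI, 11.1, 8.45 and 9.58 CPM under Kushen and 8.34, 7.73 and 7.23 CPM under Baituling. CKI lay below both single injections, by 2.17-fold against Kushen (log2 -1.12 ± 0.12, edgeR adjusted p = 6.85e-07) and by 1.74-fold against Baituling (-0.80 ± 0.13, adjusted p = 1.16e-05). Kushen exceeded Baituling by 0.32 ± 0.11 (adjusted p = 0.0175), a call lost without Kushen replicate 1 (adjusted p = 0.123), without Baituling replicate 3 (adjusted p = 0.0742) and with DESeq2 (adjusted p = 0.0559). MT3, the brain-enriched metallothionein, had 3 to 7 counts under CKI, 2 to 6 under Kushen and 0 to 1 under Baituling. MT1H, MT4 and MT1HL1 had no count in any library.

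Levels of different genes can be compared only per length. Per kilobase of the Ensembl canonical transcript, MT2A stood at 3600, 5019 and 4089 CPM per kb under CKI, Kushen and Baituling. MT1X stood at 533, 689 and 162 CPM per kb, MT1E at 396, 621 and 323. SLC30A1 (13.2, 13.3 and 7.54) and MTF1 (5.04, 3.84 and 2.16) were far lower. MT1F stood at 4.20, 4.74 and 6.34 CPM per kb. MT2A came first under either length, but under CKI and Kushen the order of MT1X and MT1E depends on the length. Per kilobase of all annotated exons MT1E stood at 281, 440 and 229 CPM per kb and MT1X at 125, 161 and 37.9. Under Baituling MT1E was above MT1X by either length.

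The zinc exporters (SLC30A family), most of which carry zinc out of the cytosol, had 8 of 10 genes tested. Against Baituling, 5 were higher under CKI and none lower, and 7 were higher and 1 lower under Kushen. Between CKI and Kushen, 1 was higher under CKI and 2 lower. SLC30A1 is among these counts. Of all tested genes, 39.1% were higher and 37.0% lower for CKI against Baituling. The shares were 35.6% and 36.1% for Kushen against Baituling, and 19.6% and 20.2% for CKI against Kushen. The exporter medians were 0.35, 0.49 and -0.02 against 0.03, 0.02 and 0.01 over all genes. With library totals the exporter splits were 7 and 0, 7 and 1, and 1 and 1.

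SLC30A3, which loads zinc into vesicles, was higher under CKI than under Baituling by 1.35 ± 0.19 (edgeR adjusted p = 2.30e-06) and than under Kushen by 0.85 ± 0.17 (adjusted p = 0.000497), from only 25 to 95 counts a library. SLC30A9 was higher under Kushen than under Baituling by 0.68 ± 0.05 (adjusted p = 1.41e-10). For CKI against Kushen SLC30A9 gave -0.19 ± 0.05 (adjusted p = 0.00282), a call lost with library totals (-0.11, adjusted p = 0.0696). SLC30A10, better known as a manganese exporter, was lower under Kushen than under Baituling by 1.03 ± 0.34 (adjusted p = 0.0105). It had 12 to 42 counts a library with overlapping groups, and without Baituling replicate 1 the adjusted p was 0.152.

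The zinc importers (SLC39A family), which bring zinc into the cytosol, had 11 of 14 genes tested and moved both ways. Against Baituling, 5 were higher and 6 lower under CKI, and 5 higher and 5 lower under Kushen. CKI against Kushen gave 3 higher and 3 lower. Of all tested genes, 39.1% were higher and 37.0% lower for CKI against Baituling. The shares were 35.6% and 36.1% for Kushen against Baituling, and 19.6% and 20.2% for CKI against Kushen. With library totals the importer splits became 5 and 3, 6 and 4, and 3 and 1.

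SLC39A14, a carrier of zinc, iron and manganese, was higher than under Baituling both under CKI (0.70 ± 0.04, edgeR adjusted p = 2.87e-11) and under Kushen (0.56 ± 0.05, adjusted p = 1.19e-09). SLC39A7, which releases zinc from the endoplasmic reticulum, differed by 0.58 ± 0.04 and 0.65 ± 0.04 in the same comparisons (adjusted p = 3.88e-11 and 9.88e-12). SLC39A4, known as the importer of dietary zinc, went the other way, at -0.98 ± 0.06 under CKI (adjusted p = 3.32e-11) and -0.68 ± 0.06 under Kushen (adjusted p = 7.48e-09). It was also lower under CKI than under Kushen by 0.29 ± 0.06 (adjusted p = 0.00124).

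SLC39A10, the importer that MTF-1 is known to repress, read 45.5, 41.5 and 45.3 CPM under CKI, 44.3, 49.3 and 44.3 CPM under Kushen and 52.6, 54.6 and 54.1 CPM under Baituling. The Baituling libraries were the highest, the reverse of SLC30A1. Its difference was -0.29 ± 0.06 for CKI against Baituling (edgeR adjusted p = 0.000154) and -0.23 ± 0.06 for Kushen against Baituling (adjusted p = 0.00152). Neither held with library totals, where the differences were 0.0018 and -0.01. CKI and Kushen differed by -0.06 ± 0.06 (adjusted p = 0.431).

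**Figure D4:**
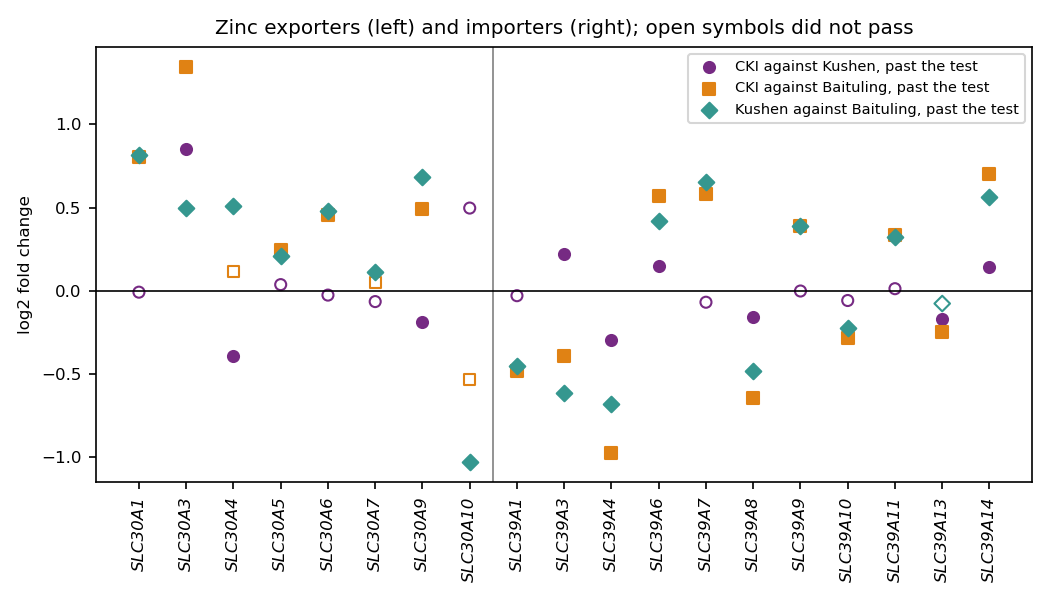
Log2 fold change of the tested zinc exporters and importers in the 3 comparisons; filled symbols passed the edgeR test and open symbols did not. Most exporters lie above 0 against Baituling, while the importers lie on both sides.

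Metallothioneins also bind copper, and of 16 copper-handling genes 15 were tested. CKI against Baituling had 7 higher and 5 lower, Kushen against Baituling 6 and 5, and CKI against Kushen 2 and 2. In the same order, the shares of all tested genes were 39.1% higher and 37.0% lower, 35.6% and 36.1%, and 19.6% and 20.2%. The copper gene medians were 0.10, 0.04 and 0.03 against 0.03, 0.02 and 0.01 over all genes. With library totals the copper gene splits were 10 and 3, 8 and 3, and 6 and 2. ATP7A, which encodes a copper-exporting ATPase and overlaps PGK1 in the annotation, was 2.23-fold higher under CKI than under Baituling (log2 1.16 ± 0.07, edgeR adjusted p = 1.51e-11) and 2.04-fold higher under Kushen (1.03 ± 0.07, adjusted p = 1.39e-10). SLC31A1, the main copper importer, was higher by 0.80 ± 0.05 and 0.77 ± 0.05 (adjusted p = 1.08e-11 and 2.99e-11). In the annotation SLC31A1 overlaps CDC26 on the opposite strand, which unstranded reads cannot separate from it. The same holds for SLC39A7 and RXRB, and several other named transporter and copper genes also overlap an annotated gene on the opposite strand.

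STEAP3, a metal reductase best known for iron, fell instead, by 1.11 ± 0.05 under CKI against Baituling (edgeR adjusted p = 1.47e-13), 0.69 ± 0.05 under Kushen against Baituling (adjusted p = 2.09e-10) and 0.42 ± 0.05 under CKI against Kushen (adjusted p = 3.11e-06). COMMD1, which takes part in copper export, was lower under CKI than under Kushen by 0.33 ± 0.07 (adjusted p = 0.00155). COX17, the copper chaperone of cytochrome c oxidase, was higher by 0.24 ± 0.06 (adjusted p = 0.00221).

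The genes with the most similar pattern were sought by Pearson correlation of log2 CPM over the 9 libraries, a description in which the points share their 3 treatments. For MT2A they were GLT8D1 (r = 0.99), CD47 (0.98), ST3GAL3 (0.98) and UQCC2 (0.98), and 123 of 11960 genes had r above 0.9. For MT1X they were CLIP4, PRDX1, ALDH3A2 and MERTK, at r of 0.998, 0.997, 0.997 and 0.997, and 1906 genes had r above 0.9. For SLC30A1 they were TRMT1L (0.997), SARAF (0.99), TC2N (0.99) and TM2D2 (0.99), with 2057 of 11959 genes above 0.9. The patterns of MT1X and SLC30A1 were thus common in this table and that of MT2A was not. Between the members, r was 0.98 for MT1X and SLC30A1, 0.92 for MTF1 and SLC30A1, 0.30 for MT2A and MT1X, and -0.86 for MT1F and MTF1.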

How the data were processed

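RNA from 9 libraries (CKI, Kushen and Baituling injection, 3 each, 48 h) was analysed. The authors trimmed reads with Trim Galore 0.3.7, aligned them to hg19 with STAR 2.5.3a and deposited raw, unnormalized gene counts; the counting program and annotation are not given in the sources used here. Groups were taken from the labels, and columns were matched by treatment initial and replicate number. Of 24566 rows, 222 repeated an Ensembl gene with identical counts and were dropped, leaving 24344 genes, of which GENCODE on GRCh37 named 24224 and RefSeq a further 99. Library totals were 20144628–23782071 counts.

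Counts were tested with edgeR 4.0.16 (quasi-likelihood, TMM, all 9 libraries, group as the only term) in R 4.3.3, after a filter for low counts (filterByExpr, minimum count 10, minimum total 15) that kept 14195 genes. Two-sided p-values were adjusted over those genes by the method of Benjamini and Hochberg, with a threshold of 0.05; fold calls needed a log2 difference over 1. Fold changes are given with SE. The method was checked on simulated counts that gave every gene the same spread beyond counting noise, so that check does not cover genes that vary more. Replicates were compared pairwise by chi-square over genes with at least 20 counts, and none were duplicates (chi-square per gene 1.70–6.85). Named genes were the 8 listed genes, MT1A and the other family genes in short, and, of the transporter and copper lists, each fold call, the 3 smallest adjusted p-values per comparison and SLC39A10. Genes of like pattern had a mean log2 CPM of at least 1. The listed genes, lists and tests were chosen with earlier results of these data known.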

Additional observations from a re-analysis of the deposited data

How the results depend on the processing

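Alternatives were DESeq2 size factors, library totals, upper quartile scaling, no filter, at least 10 counts in every library, DESeq2, only the compared groups, a replicate block, the rows as deposited and leaving out each library. Of 324 alternative log2 differences of the listed genes, 313 kept direction and call, 2 lost the call, 2 gained it and 7 reversed; of 468 for other named genes, 459 were kept, 7 lost the call and 2 reversed. The causes were not tested, and depth limits MT1F, MT1G, MT1M, SLC30A3 and SLC30A10.

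In CKI against Kushen, SLC30A1 reversed with library totals (0.0663) and with at least 10 counts in every library (0.000931), and ran from -0.0539 to 0.0119 when libraries were left out, none of it past the test. With library totals SLC39A10 reversed in CKI against Kushen (0.0163) and in CKI against Baituling (0.0018), and MT2A in CKI against Baituling (0.10). Library totals also raised the copper genes past the test in CKI against Kushen to 8, and gave family sums of 2132 CPM (CKI) and 1743 CPM (Baituling). In Kushen against Baituling, 4 listed genes passed the fold threshold with library totals, 2 with upper quartile scaling and 1 to 2 when libraries were left out (2 without Baituling replicate 1). Leaving out libraries gave 3 to 6 importers past the test in CKI against Kushen (3 without CKI replicate 3 or Kushen replicate 3) and 5 to 8 exporters in Kushen against Baituling (5 without Kushen replicate 2). MT1F in Kushen against Baituling passed without Kushen replicate 1 (adjusted p = 0.0458) and without Baituling replicate 3 (adjusted p = 0.0246).

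No pairing of the libraries by replicate number was seen. Same-number deviations correlated from -0.07 to 0.12 and other numbers from -0.15 to 0.18. Of 18 comparisons, 2 were best with their own number. With so few libraries a group, these correlations cannot show that no libraries shared a culture or batch. With the replicate block, 4, 6 and 5 listed genes passed the test in the 3 comparisons, as without it. Among the listed, transporter and copper genes it changed 1 call, that of SLC30A7 in Kushen against Baituling (log2 0.11, adjusted p = 0.0612 with the block and 0.0436 without), which left 7 exporters past the test.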

Other observations

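The genes around the metallothionein cluster were looked at because they share its place on the chromosome, and those named were chosen after their values were seen. Of 10 tested genes within 500 kb of the cluster (16:56598985-56718108, GRCh37), 2 were higher and 7 lower under CKI than under Baituling, where 39.1% of all tested genes were higher and 37.0% lower, and their median log2 difference was -0.23 against 0.03 over all genes. For Kushen against Baituling the split was again 2 and 7, with 35.6% and 36.1% of all genes, and the medians were -0.22 and 0.02. CKI against Kushen gave 1 higher and 2 lower, with 19.6% and 20.2% of all genes, and medians of -0.02 and 0.01. These splits depend on the scaling: with library totals, an alternative chosen after seeing the data, they were 3 and 4, 3 and 3, and 1 and 1, with medians of 0.06, -0.0052 and 0.06 against 0.32, 0.23 and 0.08 over all genes. None passed 2-fold. NUP93, a nuclear pore protein gene, was lower under CKI than under Baituling by 0.60 ± 0.05 (edgeR adjusted p = 3.44e-09) and GNAO1, a G protein subunit gene, was lower under Kushen by 0.83 ± 0.08 (adjusted p = 2.00e-08). HERPUD1, a gene of the endoplasmic reticulum stress response, was higher under CKI by 0.39 ± 0.06 (adjusted p = 7.79e-06), and BBS2 by 0.44 ± 0.08 (adjusted p = 3.16e-05).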
